A study of Anser cygnoides with 9 samples.

Results

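HYI, GYG1 and PGP encode enzymes that act on small sugar acids, glycogen and sugar phosphates. They are 3 of the 1371 genes listed in a table of transcript levels from cultured goose granulosa cells, the cells that surround the oocyte in the ovarian follicle. The genes were taken by name from the table and had been selected on their differences among the groups in these same libraries: HYI and GYG1 on the comparisons with the antagonist, PGP on that of agonist and blank. Their levels and fold changes are therefore given as a description and without a test. All 3 were among the 832 genes that reached 1 TPM in at least 3 libraries and entered the model across genes.

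The libraries fall into 3 groups of 3: cells given the agonist alarelin acetate, cells given the antagonist cetrorelix acetate, and blank cells given neither. Both drugs are peptide analogues of gonadotropin-releasing hormone (GnRH), the first activating and the second blocking its receptor. All cells were from Sichuan white geese aged 40 weeks, and the labels name small and large yellow follicles as the source. The design text speaks of preovulatory follicles and of pre-hierarchical follicles of 4 to 12 mm, collected 2 hours before laying. The sources used here give neither the doses nor the exposure times behind these libraries, which may have differed between the 2 drugs. Whether replicates were separate birds, separate cultures or repeats of 1 culture is not stated, so the p-values reflect library-to-library spread, possibly technical.

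Glycogen, the stored form of glucose, is built on a protein core. GYG1, glycogenin, attaches the first glucose residues to itself, and glycogen synthase extends the chain from there. PGP is a phosphatase. In mammals it removes phosphate from phosphoglycolate and from unwanted side products of glycolytic enzymes that would otherwise slow glycolysis, and it has also been described as a glycerol 3-phosphate phosphatase. HYI takes its name from the bacterial hydroxypyruvate isomerase, which interconverts hydroxypyruvate and tartronate semialdehyde in glyoxylate metabolism. Its reaction in birds is not well known. In the mammalian follicle, granulosa cells carry out much of the glycolysis that supplies the oocyte with pyruvate.

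The values are TPM, which give a transcript's share of a library after correction for transcript length. Since they are shares, a gene's value also depends on the other transcripts of the library. In these bulk samples, less of a transcript per cell and fewer cells that make it cannot be told apart. The listed genes made up 2.88% to 3.26% of each library's TPM total, and read depth is unknown. Of 20 granulosa markers 1 was listed, the activin-binding protein FST, at 39.8 to 47.8 TPM in agonist, 51.7 to 53.4 TPM in antagonist and 48.0 to 53.7 TPM in blank libraries. Of 8 theca, 5 endothelial, 6 fibroblast and 8 blood markers, the 2 listed were HSD17B1 (theca) and CDH5 (endothelial). HSD17B1 lay between 0.140 and 0.936 TPM in agonist, 0 and 0.428 TPM in antagonist, and 0.149 and 1.09 TPM in blank libraries, and CDH5 did not exceed 0.121 TPM in any library. The other markers were not analysed here, so the makeup of the cultures was not tested.

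HYI transcripts were most abundant in antagonist-treated cells. HYI had 23.8, 28.1 and 23.0 TPM in the 3 agonist libraries, 42.7, 48.4 and 47.4 TPM in the antagonist libraries, and 24.8, 27.5 and 26.7 TPM in the blank libraries. Each antagonist library lay above each of the other 6, and the agonist and blank libraries overlapped. The means were 25.0 ± 2.8 TPM with the agonist, 46.1 ± 3.0 TPM with the antagonist and 26.3 ± 1.4 TPM in blank cells (SD, n = 3 each). In order of level, the antagonist group came first, and the blank and agonist groups after it did not differ beyond their spread. The antagonist mean was 1.75 times the blank mean, and the agonist mean was 0.541 times the antagonist mean.

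**Figure D1:**
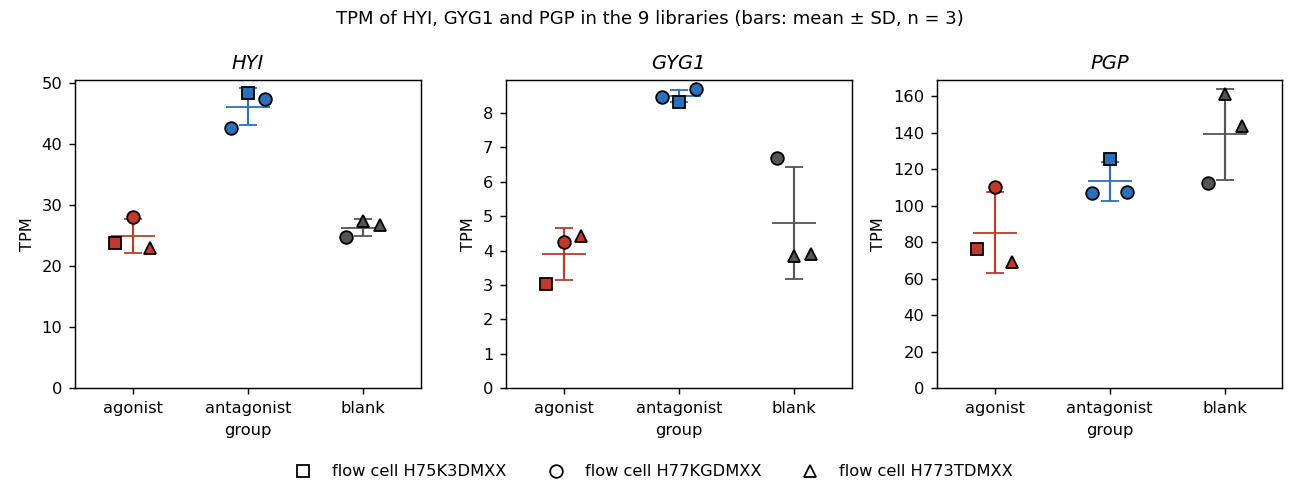
TPM of each gene (vertical axes, from 0) in the agonist, antagonist and blank libraries. Points are single libraries, their shapes mark the flow cell code, and bars are mean ± SD (n = 3). HYI and GYG1 are highest in the 3 antagonist libraries, while PGP is highest in blank replicates 2 and 3, at 162 and 144 TPM.

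GYG1 had the same order of group means at a lower level. GYG1 had 3.04, 4.25 and 4.41 TPM in the agonist libraries, 8.46, 8.32 and 8.68 TPM in the antagonist libraries, and 6.68, 3.83 and 3.91 TPM in the blank libraries. The antagonist libraries again lay above the other 6, with a coefficient of variation of 2.14%. The blank libraries were split: replicate 1 stood between the antagonist libraries and the other 2 blank libraries, which lay within the agonist range. The means were 3.90 ± 0.75 TPM with the agonist, 8.49 ± 0.18 TPM with the antagonist and 4.81 ± 1.6 TPM in blank cells (SD, n = 3 each). The antagonist mean was 1.77 times the blank mean, and the agonist mean was 0.460 times the antagonist mean. The difference between agonist and blank depended on single libraries, most of all on blank replicate 1. It was -0.22 on the log2 scale with all libraries, -0.0035 without blank replicate 1 and -0.09 without agonist replicate 1. Without any other agonist or blank library it was -0.34 to -0.28.

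PGP was the most abundant of the 3 and had another order. PGP had 76.3, 110 and 69.3 TPM in the agonist libraries, 107, 126 and 108 TPM in the antagonist libraries, and 112, 162 and 144 TPM in the blank libraries. The agonist libraries lay below the blank libraries without overlap, but the gap between agonist replicate 2 and blank replicate 1 was 1.97 TPM. The antagonist libraries overlapped both other groups. The means were 85.3 ± 22 TPM with the agonist, 113 ± 11 TPM with the antagonist and 139 ± 25 TPM in blank cells (SD, n = 3 each). In this order, neighbouring groups overlapped, so the order is one of means only. The agonist mean was 0.613 times the blank mean.

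Fold changes were set against all 832 tested genes on the scale of log2(TPM + 1), which understates changes of low genes such as GYG1. Agonist against antagonist, HYI was at -0.86 ± 0.10, GYG1 at -0.96 ± 0.18 and PGP at -0.43 ± 0.18 (SE, limma), against a median of -0.21 over all tested genes. Below HYI stood 10 other genes, below GYG1 5 and below PGP 147. Antagonist against blank, HYI was at 0.79 ± 0.10, GYG1 at 0.74 ± 0.18 and PGP at -0.28 ± 0.18, against a median of 0.12, and 6 genes stood above HYI and 11 above GYG1. Agonist against blank, HYI was at -0.08 ± 0.10, GYG1 at -0.22 ± 0.18 and PGP at -0.71 ± 0.18, against a median of -0.08. PGP had 5 genes below it there, and HYI lay at the median. The comparisons share libraries, so a high antagonist level enters 2 of them.

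**Figure D2:**
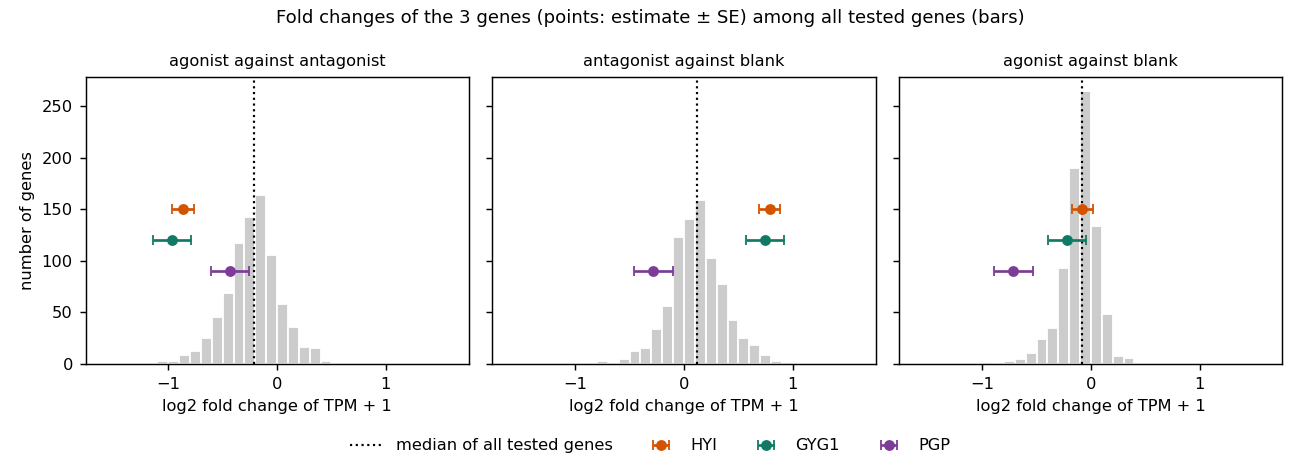
Log2 fold change of TPM + 1 in each comparison (horizontal axes) for all 832 tested genes (grey bars, number of genes) and for HYI, GYG1 and PGP (points ± SE, at arbitrary heights). The dotted line is the median of all genes, which is -0.21, 0.12 and -0.08 from left to right. HYI and GYG1 lie at the edge of the distribution in the first 2 panels and PGP in the third.

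The 3 genes were part of the model but were chosen on their differences in these same libraries, so whether they passed is no test of them. HYI and GYG1 passed an adjusted p of 0.05 in the agonist comparison with the antagonist, where 25.6% of all tested genes passed and 23.9% passed as lower. Both also passed for antagonist against blank, where the shares were 11.1% in all and 10.2% as higher. With the flow cell code of the libraries as a term in the model, 0 of the 832 tested genes passed for antagonist against blank. HYI was then at 0.77 and GYG1 at 0.65 on the log2 scale. The call of GYG1 for antagonist against blank was kept in 11 of 19 other analyses. It was also lost without a filter and under the replicate block, where 1.02% and 3.25% of all tested genes passed. The same held without any one of the 3 antagonist libraries or of blank replicates 2 and 3, where 0.24% to 0.962% passed. For agonist against antagonist the call of GYG1 was lost without agonist replicate 1 or antagonist replicate 3, where 1.8% and 2.04% of all tested genes passed. PGP passed in neither comparison. In 2 of the 19 other analyses it passed for agonist against antagonist, under the replicate block and without agonist replicate 2. There 20% and 35.5% of all tested genes passed. None of the 3 passed for agonist against blank, where 0 of 832 genes passed in limma and 102 had an unadjusted p under 0.05. Without agonist replicate 2, PGP passed for agonist against blank too, where 8.05% of all tested genes then passed. The agonist libraries lay wholly below the antagonist libraries for HYI and GYG1, as for 44.8% of all tested genes. The antagonist libraries lay wholly above the blank libraries for the same pair, as for 26.2% of tested genes, and the agonist libraries wholly below the blank libraries for PGP, as for 10.6%. These comparisons were known when the genes were chosen, so nothing is read from these calls and counts.

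Rescaling the libraries moved the median of all genes to between -0.03 and 0.03 for agonist against antagonist, and the values moved with it. With median of ratios scaling, HYI was at -0.56, GYG1 at -0.70 and PGP at -0.12 for agonist against antagonist. PGP was then at -0.47 for antagonist against blank, where it was also at -0.17 without blank replicate 2 and -0.43 without blank replicate 1. The small difference of HYI between agonist and blank cells changed sign with scaling, to 0.03 with the upper quartile, 0.04 with the median of ratios and 0.12 with quantile normalization.

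A ratio of 2 genes within a library does not depend on how libraries are scaled to each other. PGP was at 3.21, 3.93 and 3.01 times the level of HYI in the agonist libraries, 2.51, 2.60 and 2.27 times in the antagonist libraries, and 4.54, 5.88 and 5.38 times in the blank libraries. The ranges of the 3 groups did not overlap, with the antagonist lowest and the blank highest. The selection of HYI on the antagonist and of PGP on agonist and blank largely fixed this order beforehand, so it is a description. PGP was at 15.7 to 26.0 times the level of GYG1 in the agonist, 12.4 to 15.1 in the antagonist and 16.8 to 42.1 in the blank libraries. Here the agonist and blank ranges overlapped. HYI was at 5.22 to 7.82 times the level of GYG1 in the agonist libraries, 5.05 to 5.82 times in the antagonist libraries and 3.71 to 7.17 times in the blank libraries. These ranges overlapped, so the levels of HYI and GYG1 relative to each other did not separate the groups.

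The sample descriptions end in 1 of 3 codes written like the identifiers of sequencing flow cells. Code H75K3DMXX is carried by the first agonist and the second antagonist replicate. Code H77KGDMXX is carried by the second agonist and the first blank replicate and by antagonist replicates 1 and 3, and code H773TDMXX by the third agonist replicate and blank replicates 2 and 3. Each antagonist library lay above every agonist and blank library for HYI. The differences of HYI from the antagonist therefore had to keep their sign within the codes, and nothing is read from that. The median difference of all tested genes was -0.23 within H75K3DMXX and -0.15 within H77KGDMXX for agonist against antagonist. For antagonist against blank it was 0.04 within H77KGDMXX. Agonist against antagonist, HYI differed by -0.997 within H75K3DMXX and -0.66 within H77KGDMXX on the log2 scale. Antagonist against blank, HYI differed by 0.83 within H77KGDMXX, the code that held both groups. Agonist against blank, HYI was at 0.17 within H77KGDMXX and -0.23 within H773TDMXX, so the sign of this small difference was not the same in both.

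GYG1 had the same signs against the antagonist, fixed beforehand in the same way, with a smaller difference between antagonist and blank. It differed by -1.21 and -0.87 for agonist against antagonist within H75K3DMXX and H77KGDMXX, and by 0.32 for antagonist against blank within H77KGDMXX, against 0.74 over all libraries. For agonist against blank, GYG1 was at -0.55 within H77KGDMXX and at 0.15 within H773TDMXX. PGP showed hardly any difference within H77KGDMXX. Its 4 libraries there, from all 3 groups, lay between 107 and 112 TPM, a range of 0.07 on the log2 scale, where the median range of all tested genes was 0.33 and 12 of 832 genes had a smaller one. Outside this code PGP differed by -0.71 for agonist against antagonist within H75K3DMXX and by -1.13 for agonist against blank within H773TDMXX. With the code as a term in the model, the differences of PGP were -0.44, -0.27 and -0.71 for agonist against antagonist, antagonist against blank and agonist against blank, close to those without it. Groups with a single library within a code give no spread, and the part of the code in these differences was not tested.

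**Figure D3:**
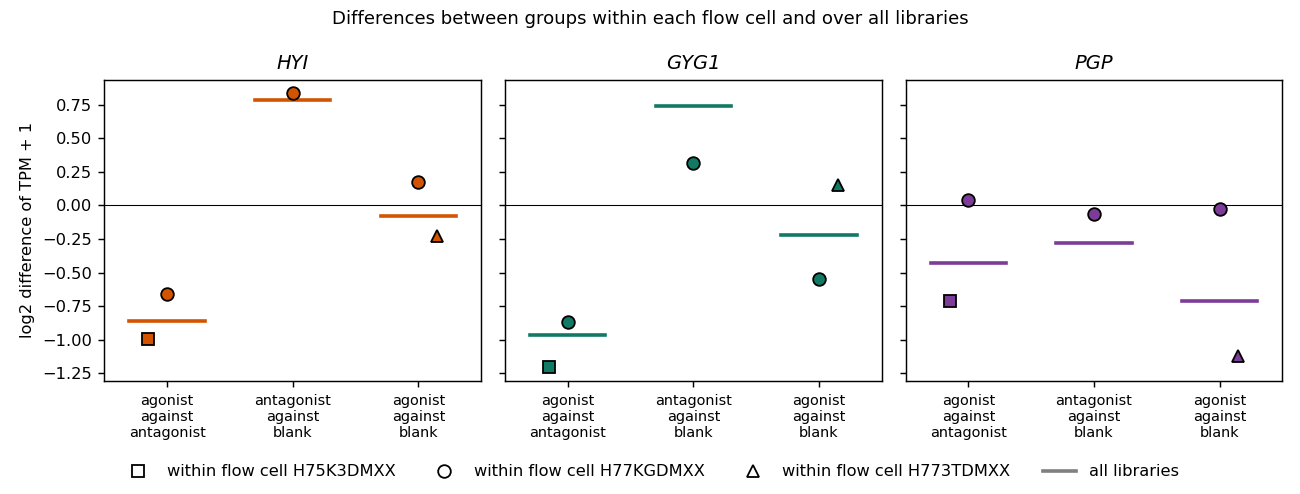
Log2 difference of TPM + 1 between groups (vertical axis) within each flow cell code (points) and over all libraries (lines), for the 3 comparisons of each gene. HYI and GYG1 keep the sign of their differences from the antagonist within the codes, as they must, since their antagonist libraries lie above all others. The PGP points of code H77KGDMXX lie at 0.04, -0.07 and -0.03.

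Over the 9 libraries, the profiles of HYI and GYG1 were nearer to each other than to that of PGP. The selection of HYI and GYG1 on the comparisons with the antagonist, and of PGP on agonist and blank, largely fixed this order beforehand, and the distances are a description. Likeness was measured as the root mean square difference between log2(TPM + 1) profiles centred on their means. It was 0.25 between HYI and GYG1, 0.46 between HYI and PGP and 0.55 between GYG1 and PGP. The median distance of a tested gene was 0.35 from HYI, 0.39 from GYG1 and 0.38 from PGP. Among 831 other genes, 79 were nearer to HYI than GYG1 was, so the pair were not each other's closest genes.

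The nearest profile to HYI was that of EGR1, an immediate early transcription factor, at 0.13, followed by SIRT7, a nuclear deacetylase of the sirtuin family, and CCDC84, both at 0.17. EGR1 had 79.1, 95.3 and 77.9 TPM in agonist, 142, 140 and 137 TPM in antagonist, and 100, 92.5 and 88.9 TPM in blank libraries. Like HYI it had its 3 highest values in the antagonist libraries. The nearest to GYG1 were TSPAN2, a tetraspanin membrane protein, at 0.08, C1H2ORF49 at 0.09 and CBFB, the partner subunit of RUNX transcription factors, at 0.11. TSPAN2 had 1.86, 2.61 and 2.65 TPM in agonist, 5.14, 4.56 and 4.96 TPM in antagonist, and 3.61, 2.09 and 2.101 TPM in blank libraries, with blank replicate 1 apart as for GYG1. The nearest to PGP were FASTK at 0.12, and TLCD1 and LHFPL5 at 0.14. FASTK, whose protein family acts in mitochondrial RNA metabolism, had 19.2, 27.6 and 15.5 TPM in agonist, 23.6, 26.0 and 22.7 TPM in antagonist, and 26.4, 32.3 and 29.9 TPM in blank libraries. Agonist replicate 2 was the highest agonist library for FASTK, TLCD1 and LHFPL5, as for PGP. The genes named here were taken for their likeness over the same libraries, so such shared traits follow from the choice.

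**Figure D4:**
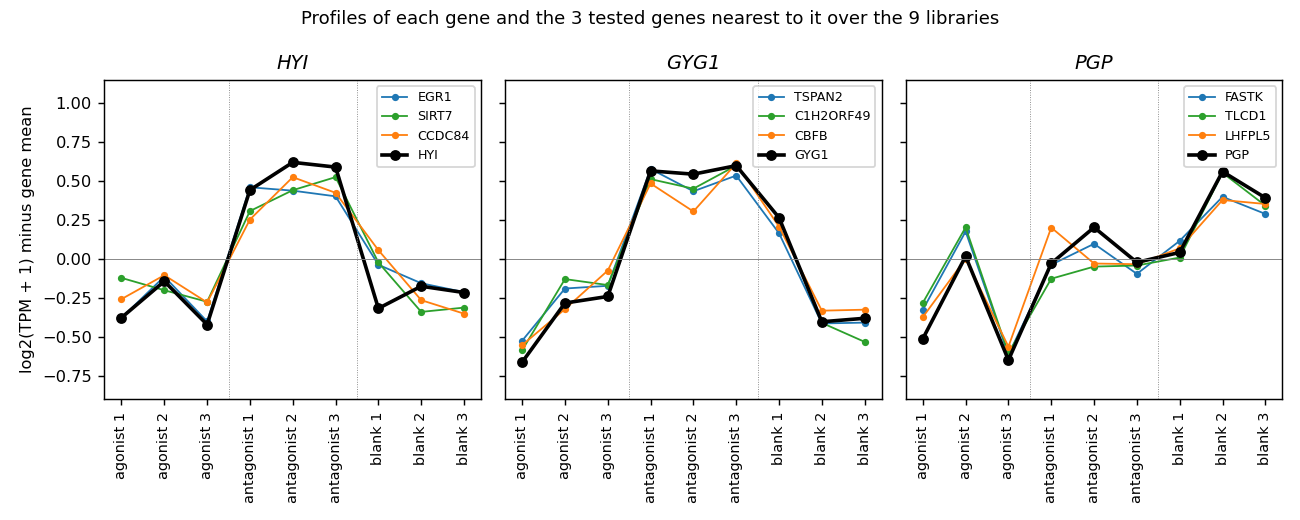
Log2(TPM + 1) minus the gene's mean (vertical axis) in each of the 9 libraries for HYI, GYG1 and PGP (black) and the 3 tested genes nearest to each (colours). Blank replicate 1 lies above the other 2 blank libraries for GYG1 and its neighbours in profile, and agonist replicate 2 above the other 2 agonist libraries for PGP and its neighbours.

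Around the 3 genes, 229 further genes were looked for. Most lists were of glycolysis, glycogen, glyoxylate and serine, pentose phosphate, sugar and amino sugar, and pyruvate and citric acid cycle metabolism. The rest were of glucose uptake, of phosphatases of the same superfamily as PGP, and of metabolite repair. Of the 229 genes, 12 were listed and 9 tested. No gene of glycogen metabolism other than GYG1 was among them. Agonist against antagonist, 2 of the 9 were lower, 0 higher and 7 did not pass, beside 23.9% of all tested genes called lower. Antagonist against blank, 1 was higher, 0 lower and 8 did not pass, beside 10.2% called higher. GALK2, called in both comparisons, met the filter of 1 TPM only through the antagonist group, where it was high. Agonist against blank, 0 of the 9 passed, beside 0% of all tested genes. None had an unadjusted p under 0.05, beside 12.3% of all tested genes, and with so few genes nothing is read from this. The medians of the 9 were -0.20, 0.11 and -0.04 in these comparisons, against -0.21, 0.12 and -0.08 for all tested genes.

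GALK2, a kinase of galactose and N-acetylgalactosamine, was the gene that passed in 2 comparisons. It had 0.771, 0.805 and 0.808 TPM in agonist, 1.34, 1.27 and 1.50 TPM in antagonist, and 1.09, 0.746 and 0.708 TPM in blank libraries. The antagonist libraries lay above every agonist library, as for 44.8% of all tested genes, and above every blank library, as for 26.2%. Blank replicate 1 lay above the other blank libraries, as for GYG1. Only these antagonist libraries and blank replicate 1 reached 1 TPM. GALK2 thus entered the model through the group in which it was high, and its calls are not independent of that filter. They are given as a description, and nothing is read from them. The log2 fold change of GALK2 was -0.40 ± 0.10 for agonist against antagonist (SE; limma, adjusted p = 0.0215) and 0.36 ± 0.10 for antagonist against blank (limma, adjusted p = 0.049). The first call was kept in 11 of 18 other analyses, with limma adjusted p from 0.00529 to 0.132, and was lost under all 3 scalings and without any one of agonist replicates 1 and 3 and antagonist replicates 1 and 3. Its fold change ran from -0.72 with a pseudocount of 0.1 to -0.16 with quantile normalization. The second call was kept in 1 of 18, without blank replicate 1, with limma adjusted p from 0.00539 to 0.181 and log2 fold changes from 0.19 with quantile normalization to 0.65 with a pseudocount of 0.1.

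BPGM, the mutase that makes 2,3-bisphosphoglycerate beside the main path of glycolysis, was lower in agonist than in antagonist libraries. It had 3.64, 4.48 and 3.56 TPM in agonist and 4.69, 4.98 and 5.56 TPM in antagonist libraries. The groups did not overlap, as for 44.8% of all tested genes in this direction. The difference was -0.31 ± 0.10 on the log2 scale (SE; limma, adjusted p = 0.0461). The call was kept in 4 of 18 other analyses, with limma adjusted p from 0.0186 to 0.838, and was lost with the flow cell code in the model (limma, adjusted p = 0.0863), with the replicate block (limma, adjusted p = 0.0733), without a filter (limma, adjusted p = 0.0627) and with only the 2 groups fitted (limma, adjusted p = 0.0562). It was also lost under all 3 scalings, where the log2 fold change was -0.13 with the upper quartile, -0.06 with the median of ratios and -0.03 with quantile normalization, and without any one of 7 of the 9 libraries, the exceptions being agonist replicate 2 and blank replicate 1.

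The other tested genes did not pass in any comparison. SORD, which oxidises sorbitol to fructose, averaged 29.7 ± 2.4 TPM in agonist, 34.2 ± 1.7 TPM in antagonist and 31.7 ± 3.1 TPM in blank libraries (SD, n = 3 each). The 95% interval of its log2 difference in limma, before adjustment, was -0.42 to 0.02 for agonist against antagonist. DLST and SDHD, of the citric acid cycle, were at -0.02 and 0.05 for agonist against antagonist, and MLXIP, a sugar-sensing transcription factor, at -0.25. HDHD3, a phosphatase of the same superfamily as PGP, was at 0.20 with an interval of -0.30 to 0.70. D2HGDH and NAXD, which clear unwanted metabolites, were at -0.21 and -0.11. In glyoxylate and serine metabolism beside HYI and PGP, HOGA1 and PSAT1 were listed, and in the pentose phosphate pathway H6PD. All 3 averaged under 1 TPM in each group, did not meet the filter and were fitted only in the analysis without a filter.

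**Figure D5:**
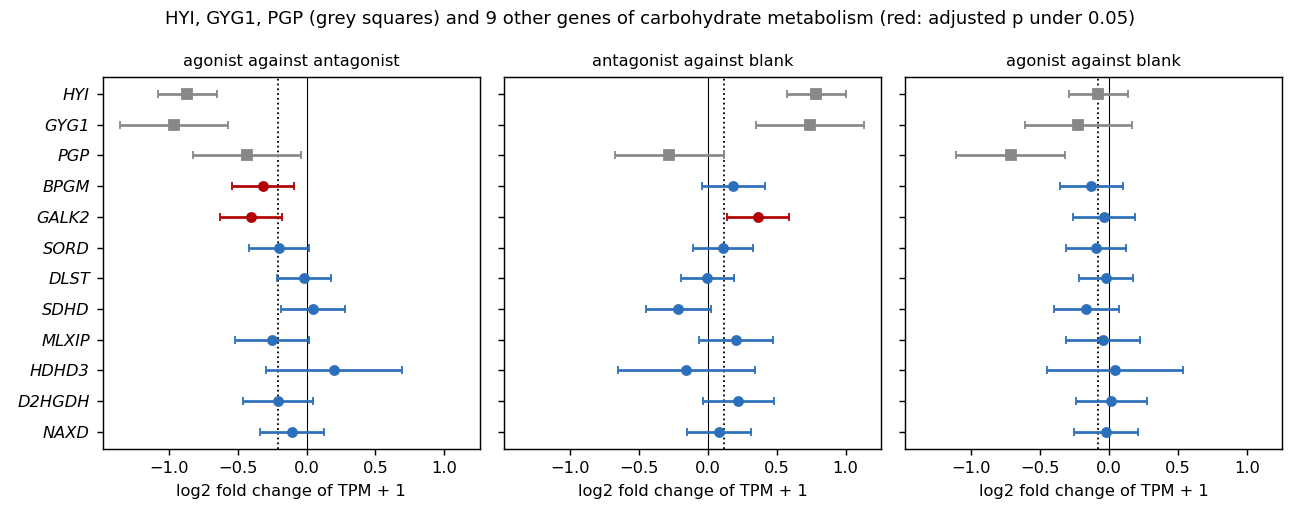
Log2 fold change of TPM + 1 with 95% intervals (horizontal axes) in each comparison for HYI, GYG1 and PGP (grey squares, described without a test) and for 9 other genes of carbohydrate metabolism, related phosphatases and metabolite repair (red where limma gave an adjusted p under 0.05, blue where not). The dotted line is the median of all 832 tested genes. GALK2 and BPGM are red at the left and GALK2 in the middle. GALK2 met the filter of 1 TPM only through the antagonist group, where it was high.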

How the data were processed

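The authors deposited TPM values for 1371 genes in 9 libraries, 1 column each, all of which were used. Per the labels' protocols, Trizol-extracted RNA went into NEBNext Ultra libraries. Named without roles in the submitters' processing notes are StringTie 1.2.2, Cufflinks 2.2.1, Cuffdiff, TopHat2 2.1.0 and CASAVA 1.8.2. Genome build, annotation, strand: not given in the sources used here. TPM keeps no depth, so no counting error can be given.

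Values were taken as log2(TPM + 1), and the 832 genes that reached 1 TPM in 3 libraries or more were fitted with limma 3.58.1 in R 4.3.3 (3 groups over all 9 libraries, empirical Bayes with a variance trend, Benjamini-Hochberg adjustment over all genes within a comparison, threshold 0.05). The code was tested on simulated data with known changes. HYI, GYG1 and PGP and all gene lists were chosen with earlier results of these data known. Of each list, the called members were named, or else the most abundant; HSD17B1, CDH5 and the other tested or listed members are named so that each is accounted for. Genes like each member were the 3 at the smallest distance. Other analyses changed the pseudocount (0.1, 0.5), the filter (none, a mean of 5 TPM), the scaling, the libraries or the terms in the model. Of the 1371 names, 1253 matched the Taihu goose T2T assembly's RefSeq annotation, used to find neighbouring genes. Promoter and protein sequences were not used here.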

Additional observations from a re-analysis of the deposited data

How the results depend on the processing

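The fold changes of HYI, GYG1 and PGP, which carry no test, moved by less than the spread between replicates in at least 16 of 19 other analyses each. That spread was 0.11, 0.26 and 0.27 on the log2 scale. Some of the 19 could not move an estimate by construction, so the count overstates how stable the values are. These were the changed filters, the replicate block, the fit of only the 2 groups, and leaving out a library outside the comparison. With upper quartile scaling, HYI was at -0.64 for agonist against antagonist and 0.67 for antagonist against blank. With median of ratios scaling, HYI was at -0.56 and 0.60 in these comparisons and at 0.037 for agonist against blank, and GYG1 and PGP were at -0.70 and -0.12 for agonist against antagonist. With quantile normalization, HYI was at -0.71 for agonist against antagonist and 0.12 for agonist against blank. Leaving out single libraries gave -0.95 to -0.81 for HYI, -1.04 to -0.83 for GYG1 and -0.63 to -0.30 for PGP in agonist against antagonist, 0.75 to 0.84, 0.63 to 0.96 and -0.43 to -0.17 in antagonist against blank, and -0.16 to -0.02, -0.34 to -0.0035 and -0.91 to -0.58 in agonist against blank.

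The number of genes called for agonist against antagonist was 213, and 86 with a mean of at least 5 TPM, 132 with the flow cell code in the model, and 104, 118 and 53 with upper quartile, median of ratios and quantile scaling. The calls split into 14 higher and 199 lower, and into 43 and 61, 68 and 50, and 25 and 28 under these scalings. Leaving out single libraries gave 15 to 295, with 15 and 121 without agonist replicates 1 and 3, and 57, 140 and 17 without antagonist replicates 1, 2 and 3. For antagonist against blank, 92 were called, and 42 and 61 with pseudocounts of 0.1 and 0.5, 14 without a filter, 26 with a mean of at least 5 TPM, 27 with the replicate number as a block, 0 with the flow cell code, and 59 and 37 with median of ratios and quantile scaling. Of these, 85 were higher and 7 lower, against 40 and 23 with upper quartile, 35 and 24 with median of ratios and 27 and 10 with quantile scaling. Leaving out single libraries gave 2 to 212, with 212 without blank replicate 1, 50 and 57 without agonist replicates 1 and 3, 8 without antagonist replicate 2, 2 without antagonist replicate 1 or 3, and 2 without blank replicate 2 or 3. For agonist against blank, leaving out single libraries gave 0 to 67, with 67 without agonist replicate 2 and 1 without antagonist replicate 3, and the other analyses gave 0.

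Of the other carbohydrate genes, 2 were called for agonist against antagonist (25.6% of all tested genes, other shares likewise). There was 1 without a filter, with the replicate block, the flow cell code or only the 2 groups (13.3% to 27%). There were 0 under the 3 scalings or with a mean of at least 5 TPM, which removes GALK2 and BPGM (6.37% to 19.4%). Leaving out single libraries gave 0 to 2 (1.8% to 35.5%). For antagonist against blank, 1 was called (11.1%), and 0 in the 10 analyses with all libraries (0% to 7.93%). Leaving out single libraries gave 0 (0.24% to 11.1%), but 3 without blank replicate 1 (25.5%), GALK2, MLXIP and D2HGDH. For agonist against blank none was called in any analysis (0% to 8.05%). The cause of these changes was not tested.

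Replicate numbers are shared between the groups, and whether they pair the libraries was not settled. The correlation of same-numbered libraries' deviations across the 832 genes ran from -0.12 to 0.22, and that of differently numbered libraries from -0.25 to 0.19. The highest values, 0.22, 0.21 and 0.21, were of same-numbered libraries. Some libraries correlated better with another number than with their own, and nothing ties a number to a bird or day. With the number as a block, 166 genes were called for agonist against antagonist. Depth is unknown, so the counting error of GYG1 and GALK2, the lower genes, could not be given.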

Other observations

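By the Taihu goose T2T assembly's RefSeq annotation, 5 of the genes that lie within 2 places of HYI, GYG1 or PGP were tested. MED8, a Mediator subunit near HYI, was at -0.31 ± 0.11 on the log2 scale for agonist against antagonist (SE; limma, adjusted p = 0.0546), and HPS3, near GYG1, at -0.34 ± 0.17 (limma, adjusted p = 0.152). ZDHHC4, E4F1 and MLST8, near PGP, were at 0.0035, -0.07 and -0.26 for agonist against blank, where PGP was at -0.71. No member of the 5 passed in limma when antagonist libraries were compared with agonist or blank libraries. The shares of all tested genes that passed there were 25.6% and 11.1%. ZDHHC4 met the filter of 1 TPM only through the antagonist group, where it was high, at 1.19 to 1.31 TPM. Its highest values were 0.956 TPM in agonist and 1.03 TPM in blank libraries. Its comparisons with the antagonist are not independent of that filter, and nothing is read from them. Between agonist and blank libraries 0 of the 832 tested genes passed, so that comparison cannot set these 5 apart. MLST8, a subunit of the mTOR complexes, averaged 14.7 ± 2.8 TPM in agonist, 15.3 ± 1.9 TPM in antagonist and 17.7 ± 1.8 TPM in blank libraries (SD, n = 3 each).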
